A study of Mus musculus with 3 samples.

Results

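Long intergenic RNAs are transcripts made from stretches of the genome between protein-coding genes. They carry no long reading frame, many are present at low levels and in few tissues, and some act in the nucleus on chromatin or on the processing of other RNAs. The array design used here covers them with probes that carry no gene name. Each is named by a genome interval and a suffix, F or R, for the strand it reads. The members described here were the non-control probes named in this way on a numbered chromosome, 15604 of the 55681 non-control probes (28.0%). The files give the name but neither the sequence nor the exact position of a probe, so whether an interval lies between genes was not analysed here, and no probe sequence is shown.

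The probes were read on 3 one-colour arrays of C57BL/6J mouse liver, 1 array each for livers given wild-type human YAP (WT) or its active mutants 1SA and 2SA, sampled at 2 days by their labels. YAP, a coactivator of transcription, is the protein that the Hippo pathway keeps out of the nucleus. All groups had received plasmid by hydrodynamic tail vein injection, a rapid injection of a large volume that injures the liver and brings plasmid into only a part of the hepatocytes, and the transgene was driven by a hepatocyte-specific enhancer and promoter. Male young adult mice were mainly used in the study, the labels leave unsaid if RNA came from 1 animal or several, the WT sample is numbered 2, and no uninjected liver is part of the comparison. With 1 array per group no difference below has a replicate check, no p-value was computed, and a difference between groups cannot be told apart from a difference between liver samples. In RNA of whole liver, fewer cells of a type and less RNA per cell cannot be told apart either.

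A probe was called measured on an array when it was well above background by the scanner software's own flag. Signal is the log2 intensity minus the log2 of the 75th percentile of that array, at 290.8, 275.7 and 319.5 for WT, 1SA and 2SA. A value of 0 is therefore the 75th percentile. The only repeat measurement came from probes printed as repeated spots, none of them a region probe, and the SD of a difference between arrays from this source was 0.10 on the log2 scale. Hepatocyte marker genes were measured on every array (10 of 10, median signal 9.38, 9.48 and 9.32 in WT, 1SA and 2SA).

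The 15604 probes covered 3387 intervals. An interval on 1 strand is called a region here, and there were 4429 regions, since 1042 intervals (30.8%) carried probes for both strands, 1189 for F alone and 1156 for R alone. F had 7890 probes and R had 7714. Most regions carried several probes: 3769 had 2 or more, 1726 had 3, 955 had 5 and 143 had the largest number, 10. The intervals had a median length of 7451 bp (lower and upper quartile 794 and 21818 bp, mouse build mm9), and 1 was longer than 1 Mb. Many intervals overlapped, with 2034 regions sharing bases with another region of the same strand. Regions of a strand that overlapped or lay within 10 kb of each other were joined into 3005 loci. Several probes of a region or locus read the same RNA sample on the same array, and so they check a probe and not a group.

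About 1 in 3 region probes was measured on each array. The WT array measured 5066 (32.5%), the 1SA array 5451 (34.9%) and the 2SA array 5760 (36.9%). On all 3 arrays 4703 probes were measured (30.1%), and 9316 (59.7%) were measured on none. The order WT, 1SA, 2SA was also that of all non-control probes, at 52.0%, 53.3% and 55.3%, and the lowest intensity that passed the flag fell in the same order, from 12.5 on WT to 10.3 on 1SA and 5.94 on 2SA. Whether this limit accounts for the order was not tested. Probes of messenger RNAs, named by an NM_ accession, were measured on all 3 arrays in 66.2% of 26430 cases, and probes of curated noncoding RNAs, named by an NR_ accession, in 42.3% of 886.

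**Figure D1:**
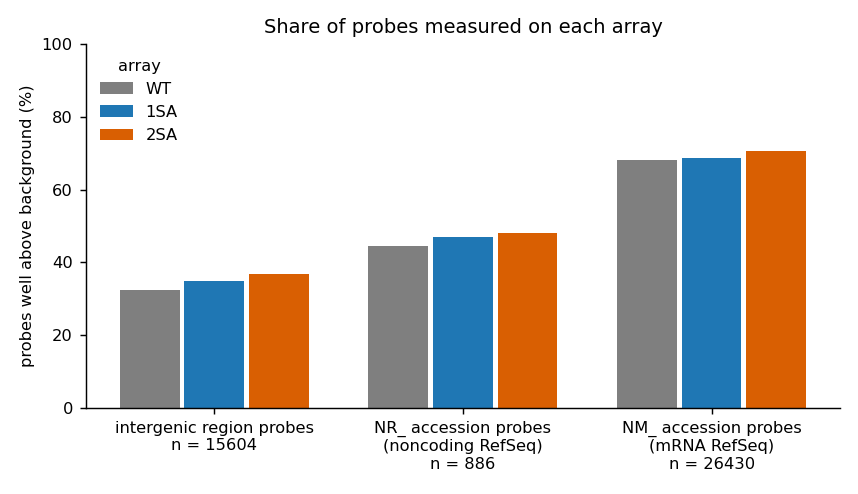
Share of probes well above background (vertical axis, percent) on the WT, 1SA and 2SA arrays (grey, blue and orange bars), for the region probes, the probes with an NR_ accession and the probes with an NM_ accession. The region probes stay between 32.5% and 36.9%, under both other classes on every array.

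The 1002 region probes measured on a single array comprised 179 on WT, 285 on 1SA and 538 on 2SA. Strand made little difference to detection, with 29.4% of F probes and 30.9% of R probes measured on all 3 arrays. By chromosome the share ran from 22.5% on chromosome 10 to 37.3% on chromosome 17. Probes of intervals up to the lower quartile of length (794 bp) were measured in 23.8% of cases, and those of the classes above in 31.8%, 31.9% and 30.1%. A region with more probes has more chances to be reached. The share of single probes measured on all 3 arrays was 34.5%, 28.2%, 28.1% and 35.1% in regions with 1, 3, 5 and 10 probes. At least 1 probe was measured on all 3 arrays in 34.5% of regions with 1 probe, 50.5% with 3, 66.7% with 5 and 90.2% with 10. In all, 2452 regions (55.4%) had such a probe, and 1399 (31.6%) had no probe measured on any array. Among the 3769 regions with 2 or more probes, all of the probes were measured on all 3 arrays in 389, some in 1835 and none in 1545.

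Measured region probes were dim. Their median signal in WT, 1SA and 2SA was -2.37, -2.54 and -2.77, against 0.40, 0.35 and 0.27 for NM_ probes and -1.12, -1.38 and -1.54 for NR_ probes. The signal of 1 probe cannot be read as an RNA amount against that of another, because probes differ in how well they bind, so these medians describe the classes as the array shows them. A minority was bright: 935 region probes on WT (18.5% of those measured), 970 on 1SA (17.8%) and 922 on 2SA (16.0%) lay at or above the 75th percentile of their array. The brightest was a probe of chr1:193875525-193978800 (R), which read 9.74 (WT), 10.04 (1SA) and 9.54 (2SA). A probe of chr14:78924115-78938125 (F) read 8.57, 8.76 and 8.49 on the same arrays, and one of chr19:5801802-5802597 (R) read 8.64, 8.32 and 8.52. These 3 probes differed by less than 2-fold between any pair of arrays. The next were a probe of chr6:116092274-116144199 (F) at 8.35, 8.49 and 8.23 and probes on both strands of chr12:73838608-73862621, at 8.29, 8.49 and 8.27 on R and 8.36, 8.44 and 8.22 on F.

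Probes of the same region differed in brightness. How brightly a probe binds drops out of a difference between arrays only where the signal is well clear of background. Over region probes measured on all 3 arrays, the SD of 1SA minus WT was 0.41 in the dimmest signal class and 0.19 in the brightest. In the 1165 regions with 2 or more probes measured on all 3 arrays, which held 3416 probes, the median SD between probes of a region was 0.92 for the signal and 0.17 for the difference 1SA minus WT. It was 0.17 for 2SA minus WT and 0.19 for 2SA minus 1SA. The SD between regions of the mean difference was 0.27, 0.27 and 0.31. These are spreads between probes on the same arrays, not between livers.

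**Figure D2:**
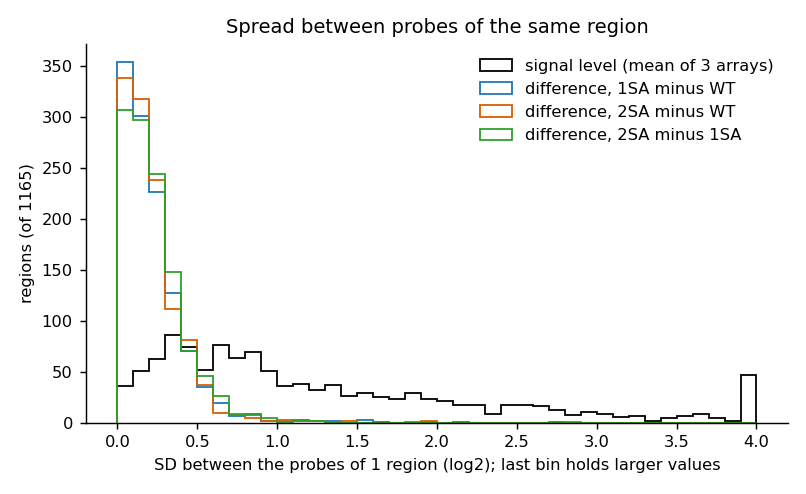
Number of regions (vertical axis, of 1165 with 2 or more probes measured on all 3 arrays) by the SD between the probes of the region (horizontal axis, log2). The black line is the SD of the signal, with a median of 0.92, and the coloured lines are the SDs of the 3 differences between arrays, with medians of 0.17 to 0.19.

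The median differences of the region probes lay on the same side of 0 as those of all probes. For 1SA minus WT the median difference was 0.05 over 4767 region probes measured on both arrays, beside 0.02 over all probes. For 2SA minus WT it was -0.05 over 4823, beside -0.03, and for 2SA minus 1SA it was -0.11 over 5102, beside -0.06. The share of region probes above 0 was 57.4%, 41.5% and 35.4% in these comparisons, beside 53.3%, 43.3% and 41.8% of all probes. The SD of single probes was 0.36, 0.37 and 0.40.

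The livers with 1SA and WT differed by at least 2-fold in few region probes. In 1SA, 46 of 4767 (0.965%) were higher and 34 (0.713%) were lower, where 0.746% of all 28032 probes were higher and 0.974% were lower. In 2SA against WT, 33 of 4823 (0.684%) were higher and 63 (1.31%) were lower, where 0.923% and 0.732% of all 28290 probes were. In 2SA against 1SA, 43 of 5102 (0.843%) were higher and 97 (1.90%) were lower, where 1.89% and 1.27% of all 28851 probes were. With normexp background correction, which adds an offset to every signal and so changes dim ones most, the counts of higher and lower were 13 and 4, 3 and 13, and 3 and 22. The 3 comparisons share arrays in pairs. Region probes with such a difference were thus more often lower than higher in 2SA in both comparisons, while all probes were more often higher, a split that held under every scaling tried. Without the filter on dim probes, all probes too were more often lower, with 39.7% and 46.0% of the calls higher in 2SA than WT and than 1SA. The lowest signal that passed the flag was -4.54, -4.75 and -5.75 on WT, 1SA and 2SA. A dim probe measured on both arrays can therefore be lower in 2SA over a wider range than it can be higher. The part of this limit in the split was not tested.

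Each mutant was also set against both other arrays. Of 4703 region probes, 26 were 2-fold higher in 1SA than in WT and 2SA (0.553%, 0.373% of all probes) and 4 were lower (0.0851%, 0.474% of all probes). In 2SA, 14 were higher than in both others (0.298%, 0.481% of all probes) and 25 were lower (0.532%, 0.269% of all probes).

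The dimmest probes held most of these calls. Among the region probes measured on all 3 arrays, the share 2-fold apart between 1SA and WT went from 2.10% in the lowest of 4 signal classes over 1.21% and 0.862% to 0.308% in the highest, with the classes set by the quartiles of all probes. In 2SA against 1SA these classes held 25, 12, 0 and 0 higher and 55, 21, 10 and 0 lower region probes. NM_ probes of the same signal had 113, 128, 123 and 49 higher and 66, 44, 41 and 27 lower. The third class held 696 region probes and 5297 NM_ probes. In it, region probes were thus lower in all 10 cases, where the NM_ probes were higher in 123 and lower in 41. The share 2-fold apart in either direction was 1.44% of these region probes and 3.10% of these NM_ probes. These are counts of probes and not of regions. All 3 probes of chr2:67836003-67836461 (F) were among the 10. So were probes of chr16:23992037-24001037 (F) with differences of -2.18 and -2.36, so the 10 are not separate regions.

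Relative to WT, both mutants were at least 2-fold higher in 4 region probes (0.0851% of 4703, 0.136% of all probes) and at least 2-fold lower in 18 (0.383%, 0.237% of all probes). Of the 4, all had another probe of their region measured on all 3 arrays, and of the 18, 14 had. For none of these probes did another probe of the region pass 2-fold in both mutants. The probe with the deepest fall belongs to chr4:123171177-123177198 (R) and read 0.39 (WT), -4.03 (1SA) and -4.18 (2SA). Its 2 neighbours in the region went the other way, by 0.10 to 0.62 in 1SA and 0.19 to 0.42 in 2SA. A probe of chr3:79069438-79073704 (R) read 0.26, -3.09 and -3.38 on the same arrays, against differences of -0.71 and -0.42 in 1SA and -0.37 and -0.13 in 2SA for the 2 other probes. One of 10 probes of chr12:81217572-81233910 (R) read 0.59, -2.72 and -2.24, while 4 others measured there differed by -0.19 to 0.48 in 1SA and 0.08 to 0.58 in 2SA. Probes of chr12:110074255-110075707 (F), at -1.83, -4.28 and -4.66, and of chr15:99765243-99783300 (F), at -0.83, -2.67 and -3.49, likewise stood alone, with a single other measured probe each at -0.21 and -0.06 in the first and -0.40 and -0.01 in the second.

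The 4 probes higher in both mutants were dim and had neighbours that moved the same way to a lesser degree in part of the cases. The probe of chr6:31007184-31007725 (R) read -3.29 (WT), -2.20 (1SA) and -1.57 (2SA), and the other measured probe had differences of 0.78 and 1.25. In chr1:107866276-107887102 (R) the probe read -3.72, -2.43 and -2.52, beside 2 others with differences of 0.50 and 0.94 in 1SA and 0.62 and 1.32 in 2SA. In chr10:117021051-117038683 (F) it read -4.33, -3.26 and -2.80, and 4 other probes differed by 0.18 to 0.87 and 0.82 to 1.23. The fourth, of chr1:63163023-63180223 (F), read -3.92, -2.87 and -2.77, beside 4 others at 0.01 to 0.81 in 1SA and -0.29 to 0.73 in 2SA. In 3 of these regions every other measured probe was thus higher in both mutants.

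How far a probe's difference was shared by its region differed between the comparisons, in counts of probes. Of the 46 probes higher in 1SA than WT, 35 had another probe of the region measured on both arrays, and in 10 of the 35 another probe was 2-fold higher too. Of the 34 lower in 1SA it was 2 of 26. For 2SA against WT it was 13 of 25 among the higher and 16 of 45 among the lower probes. For 2SA against 1SA it was 9 of 33 among the higher and 40 of 71 among the lower, the highest count. Probes of 1 region vouch for each other here, so these are not counts of regions. In the same order, the probes with another probe 2-fold the same way lay in 4, 1, 5, 5, 4 and 15 regions. Probes with such company were brighter, with a median signal of -1.30 against -2.84 for the probes higher in 1SA than WT and -1.81 against -3.44 for those lower in 2SA than WT. The largest single differences lacked it.

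**Figure D3:**
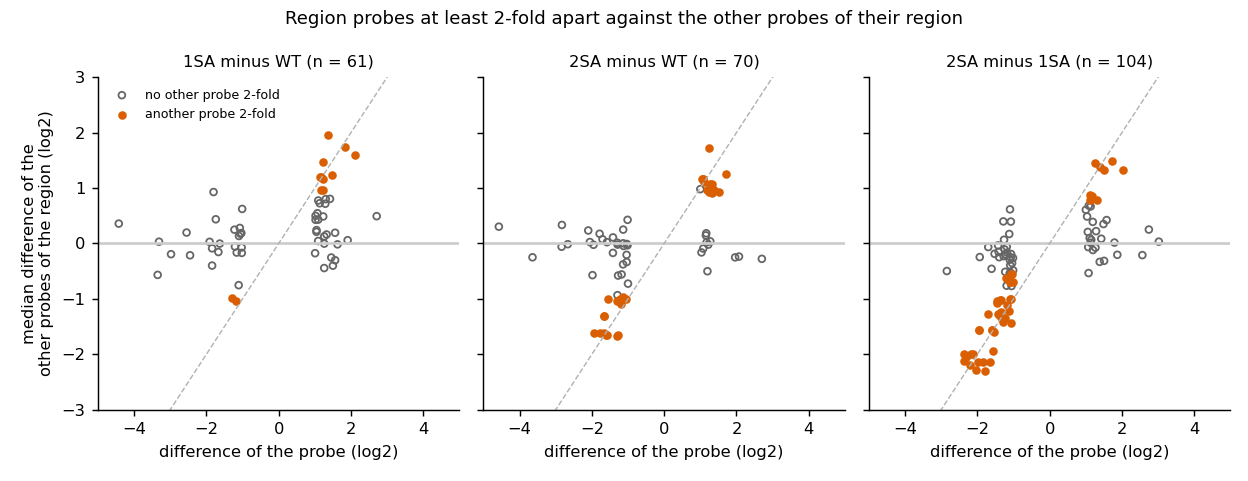
Each point is a region probe at least 2-fold apart between a pair of arrays with at least 1 other measured probe in its region (61, 70 and 104 probes in the panels). The horizontal axis is its own difference and the vertical axis the median difference of the other probes (both log2). Filled orange points, with another probe 2-fold the same way, follow the dashed line of equal differences, and the widest differences are open points near 0 on the vertical axis.

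Several of the largest differences had no second probe to set against them or one that did not move. In 1SA a probe of chr15:83281223-83284791 (R) rose from -3.56 on WT to 0.26 and was at -3.22 on 2SA, and a probe of chr16:40471828-40472481 (F) read -4.14, -1.32 and -4.02. Neither had another measured probe in its region. A probe of the neighbouring chr16:40470294-40470935 (F), in the same locus as the second, read -3.28, -2.77 and -4.14, so that 2 of the 2 measured probes of that locus were 2-fold lower in 2SA than 1SA. A probe of chr2:167388900-167402475 (R) read -3.77 (WT), -1.06 (1SA) and -3.90 (2SA), beside another that differed by 0.49 in 1SA. In the other direction a probe of chr2:36112819-36114110 (F) read -1.32 on WT and -4.29 on 1SA, with 2 others at -0.72 and 0.33.

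In 2SA the widest rise over WT was that of a probe of chr12:85252300-85253597 (R), which read -2.57 (WT), -2.89 (1SA) and 0.13 (2SA), while the other measured probe differed by -0.28. Probes of chr14:79304650-79345152 (R), from -3.92 to -1.85, and of chr8:71891610-71924216 (F), from -3.93 to -1.96, also rose alone, with others between -0.28 and -0.23. A probe of chr12:76771424-76772158 (F) rose from -3.21 to -1.42 and had no measured partner. The lowest in 2SA beside those already named was a probe of chr1:183832694-183834125 (R), which read -0.68 on WT and -4.60 on 2SA and was not measured on 1SA. Against 1SA, probes of chr12:89479525-89503525 (F), from -4.14 to -1.39, and of chr11:59217249-59217785 (R), from -4.07 to -1.51, were higher in 2SA, and a probe of chr5:54053328-54053870 (F), from -1.08 to -3.88, was lower. The other measured probes of the first pair differed by 0.25 and -0.21. In chr8:10886200-10905925 (F), by contrast, all 3 probes moved: the widest read -1.90 (WT), -3.18 (1SA) and -1.15 (2SA), and the others were 0.93 and 1.72 higher in 2SA than 1SA.

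A probe measured on 1 array of a pair gives only a bound, taken against its own dim value or, if higher, the lowest signal that passed the flag on that array. This lowest signal was -4.54, -4.75 and -5.75 on WT, 1SA and 2SA. By construction a bound can thus be widest where 2SA is the array without a measured value. The shares higher and lower cannot be compared with each other, only with those of all probes. In 1SA against WT, 68 of 679 such region probes were at least 2-fold higher by that bound, beside 10.9% of all probes, and 113 of 297 (38.0%, beside 37.6%) were lower. In 2SA against WT it was 77 of 934 (8.24%, beside 10.8%) and 197 of 241 (81.7%, beside 80.0%), and in 2SA against 1SA 88 of 654 (13.5%, beside 18.2%) and 208 of 347 (59.9%, beside 60.4%). The widest bounds were of single probes. A probe of chr14:77006215-77063293 (F), at 0.65 on 2SA and not well above background on the others, was at least 36.6-fold higher than on WT and at least 42.3-fold higher than on 1SA, while 2 other probes there differed by 0.03 and 0.12 from WT. One of chr1:134867906-134885481 (R), at -0.32 on 1SA, was at least 18.6-fold higher than on WT and at least 43.1-fold above 2SA, beside 5 others at -0.84 to 0.12 in 1SA minus WT. A probe of chr1:92177032-92180487 (F), at -0.37 on WT, was at least 16.8-fold lower on 1SA and 30.6-fold lower on 2SA, with no other measured probe.

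In 10 regions, 3 or more probes were at least 2-fold apart the same way. The clearest was chr16:23992037-24001037 (F), where all 6 probes measured on WT and 2SA were 2-fold lower in 2SA, with differences of -1.27 to -1.95. Its brightest probe read 0.73 (WT), 1.12 (1SA) and -1.06 (2SA). The dimmest of the 6 read -2.08, -1.70 and -3.35. In 1SA all 6 were above WT by 0.23 to 0.48, so that 2SA minus 1SA ran from -1.65 to -2.36. The seventh probe was measured on WT at -3.25 and on 1SA at -2.97, and it was not well above background on 2SA. In the overlapping region chr16:23989160-23992539 (F) a probe read -3.56, -3.22 and -4.48.

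The opposite strand of that interval, chr16:23992037-24001037 (R), moved in the same direction. Of 4 probes measured on all 3 arrays, 3 were 2-fold lower in 2SA than WT, with differences of -1.31, -1.67 and -1.67. They read -2.47, -2.66 and -1.99 on WT and -3.77, -4.33 and -3.66 on 2SA. The fourth and brightest read -0.51 (WT), -0.67 (1SA) and -0.89 (2SA), a difference of -0.37. This was the only interval in which the strand means of both F and R were at least 2-fold apart between 2SA and WT.

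Opposite movement in the mutants was seen on chromosome 2. The regions chr2:67834535-67834914 (F) and chr2:67836003-67836461 (F) lie next to each other and carry 3 probes each, all measured on every array. The probes of the second region read 2.02, 1.62 and 0.65 in WT, then 3.18, 2.77 and 1.88 in 1SA, but 0.97, 0.74 and -0.48 in 2SA. In 1SA they were higher than WT by 1.15 to 1.23, and in 2SA they differed from WT by -0.88 to -1.13. The first region was dimmer, at -2.75, -3.41 and -3.08 on WT, and moved likewise, with 0.61 to 1.42 in 1SA and -0.89 to -1.30 in 2SA. Between the mutants all 6 probes were 2-fold apart, with 2SA minus 1SA from -1.79 to -2.37. No other region had a probe 2-fold higher in 1SA and 2-fold lower in 2SA than WT, or the reverse.

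**Figure D4:**
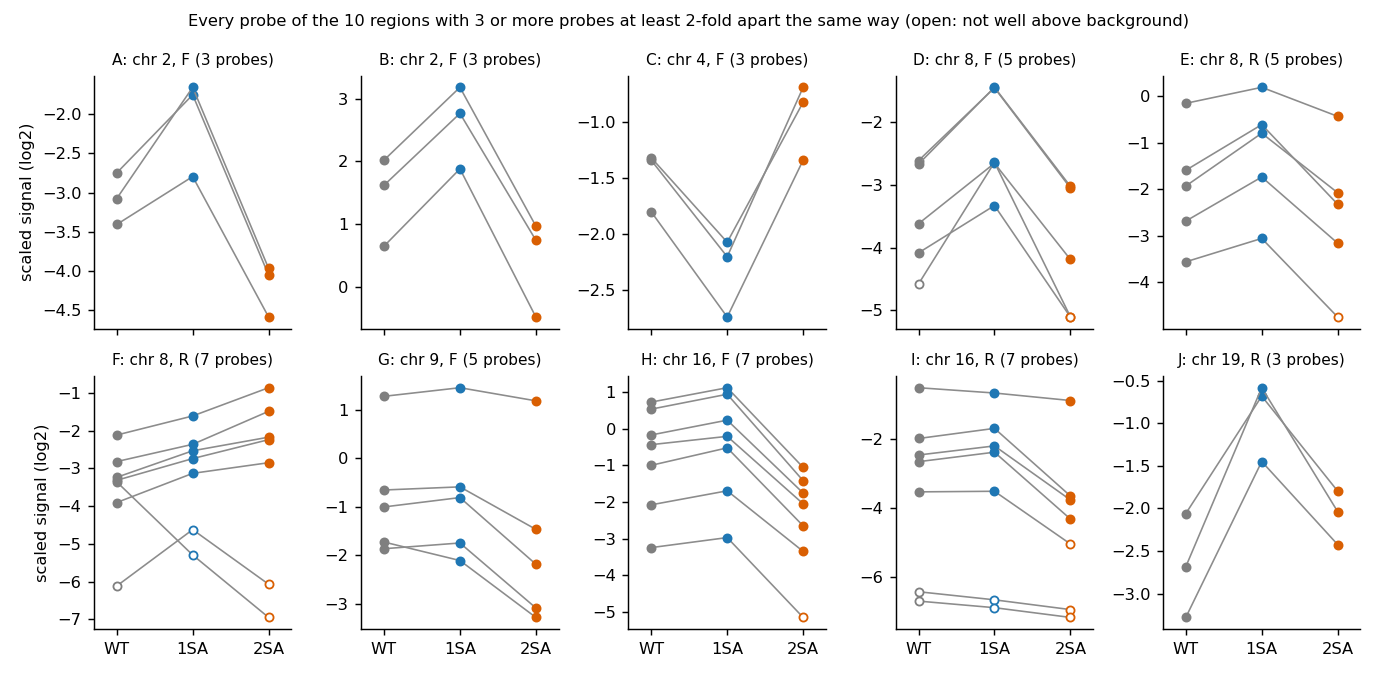
Scaled signal (vertical axes, log2, with a range of their own in each panel) of every probe of the 10 regions with 3 or more probes at least 2-fold apart the same way, on the WT, 1SA and 2SA arrays. Lines join the values of a probe, and open circles are values not well above background. Panels A and B are the pair on chromosome 2, D and E the strands of an interval on chromosome 8, and H and I the strands of the interval on chromosome 16, where 2SA is the lowest array for every measured probe.

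An interval on chromosome 8, chr8:26343277-26352902, also moved on both strands, mainly between the mutants. On F, 3 of 3 probes measured on both mutant arrays were lower in 2SA than 1SA, with differences of -1.54 to -1.60. The brightest pair read -2.61 and -2.66 on WT, -1.45 and -1.44 on 1SA and -3.05 and -3.02 on 2SA. On R, 3 of 4 were 2-fold lower, with differences of -0.62 to -1.71 over the 4. A nested R region, chr8:26347473-26348052, had a probe at -3.51, -2.70 and -4.47, and another, chr8:26345571-26346095 (R), had a probe at 0.34, 0.41 and 0.40 that hardly moved. Within the locus the probes therefore differed among themselves.

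The 3 probes of chr19:5834117-5835940 (R) were highest in 1SA. They read -2.06, -2.68 and -3.28 on WT, -0.68, -0.58 and -1.45 on 1SA and -1.80, -2.04 and -2.42 on 2SA, which gives 1.38 to 2.10 in 1SA and 0.26 to 0.85 in 2SA. The other regions of this locus, joined with it through the wide interval chr19:5771425-5848475 (R), held 7 measured probes, all lower in 1SA than WT, with differences of -0.15 to -0.38. These include the bright probe of chr19:5801802-5802597 named above.

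In chr4:149445201-149445902 (F), by contrast, 1SA was the lowest. Its 3 probes read -1.32, -1.34 and -1.80 on WT, -2.07, -2.20 and -2.74 on 1SA and -0.83, -0.70 and -1.34 on 2SA, so that 2SA was 1.24 to 1.51 above 1SA. The difference from WT stayed under 2-fold in each mutant, at -0.75 to -0.93 in 1SA and 0.46 to 0.65 in 2SA. A probe of the wider region chr4:149383134-149451259 (F), which contains it, read -2.21, -2.05 and -1.94 and did not follow.

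Rising signal from WT over 1SA to 2SA was seen in chr8:126268510-126290810 (R). The 5 probes measured on all 3 arrays were 0.46 to 0.77 higher in 1SA and 1.05 to 1.33 higher in 2SA than WT. The brightest read -2.12 (WT), -1.61 (1SA) and -0.86 (2SA). Another probe went the other way: it read -3.36 on WT and was not well above background on either mutant array. The seventh was not measured on any array.

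The other loci with 3 or more such probes were less uniform. In chr9:106170918-106177894 (F), 3 of 5 probes were 2-fold lower in 2SA than WT, with the brightest, at 1.28, 1.45 and 1.18, the least moved (-0.09) and the widest at -1.55. In a locus on chromosome 3 that holds chr3:35782698-35789932 (R), 3 of 7 probes measured on both arrays were 2-fold lower in 2SA than 1SA, and all 7 were lower, by values from -0.27 to -1.10. In a locus of 8 regions on chromosome 1, from base 138442536 to base 138632310 (F), 4 of 20 probes were 2-fold higher in 2SA than 1SA, and the median over the 20 was -0.04 (0.04 with the values of the series matrix). The 4 lay in chr1:138570107-138632310, chr1:138579972-138587381 and chr1:138592780-138622719, at the higher coordinates of the locus. With normexp background correction, which adds an offset and draws the differences of dim probes towards 0, all medians of these loci kept their sign, but fewer probes passed 2-fold: 4 of 7 in the chr16 F locus and 0 of 4 on its R strand in 2SA minus WT, 3 of 6 in the chr2 locus in 1SA minus WT and in 2SA minus 1SA, 0 of 6 there in 2SA minus WT (median -0.58), 0 of 5 in chr8:126268510-126290810 in 2SA minus WT and 0 of 4 in the chr4 locus in 2SA minus 1SA. In 1SA minus WT it was 1 of 10 in the chr19 locus, and in 2SA minus WT 0 of 5 in the chr9 locus. In 2SA minus 1SA it was 1 of 5 on chr9, 0 of 7 on chr3 and 1 of 20 on chr1. The loci at chr8:26343277-26352902 kept 1 of 3 on F and 1 of 7 on R. The normexp medians of the chr19 and chr1 loci, -0.27 and -0.09, lay opposite to their counted probes, which were higher.

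Marker genes of other liver cells differed to varying degrees between the same arrays, and their part in the differences above was not tested. The 8 Kupffer cell markers, all measured, had a median signal of 3.86, 3.68 and 3.43 in WT, 1SA and 2SA, with median differences from WT of -0.46 and -0.87. They did not move as 1, with differences from -1.21 to 0.45 in 1SA and -1.59 to 0.16 in 2SA, and 2 markers above WT in each mutant. The 7 markers of sinusoidal endothelium stood at -0.05 and -0.12, and the 10 hepatocyte markers at 0.10 and -0.20. Of 9 red cell genes 6 were measured, with medians of 0.82 and 0.44, and of 9 granulocyte and monocyte genes 5 were, at 0.23 and 0.13. The 8 cell cycle genes stood at 0.75 and 0.91, and 6 targets of YAP at -0.11 and 0.75. All 8 cell cycle genes were above WT in each mutant. The YAP targets were mixed, from -1.52 to 0.59 in 1SA and -0.02 to 2.15 in 2SA, with 3 and 5 above WT. The granulocyte and monocyte genes ran from -0.11 to 2.33 in 1SA and -0.19 to 0.85 in 2SA.

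Probes for both strands allowed 1042 intervals to be read in each direction. Both strands were measured in 514, 538 and 582 on the WT, 1SA and 2SA arrays, and neither in 132, 120 and 110. A single strand was measured in 38.0%, 36.9% and 33.6%, split into 200, 177 and 178 with F alone and 196, 207 and 172 with R alone. The pattern was the same on all 3 arrays in 813 intervals: 467 with both strands, 127 with F, 130 with R and 89 with neither. Only 6 changed between F alone and R alone. Among the 584 intervals with an equal number of probes on each strand, the share with a single strand was 37.7%, 36.1% and 34.4%.

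In 456 intervals both strands had probes measured on all 3 arrays. The mean signal of F probes and of R probes was taken for each, and since these are different probes the gap between them describes the array and not a ratio of transcripts. F was at least 2-fold above R on all 3 arrays in 146, and R above F in 124. The median gap, without sign, was 1.52, and 156 (34.2%) lay within 2-fold by the mean of the arrays, while 111 were more than 8-fold apart. The gap changed little from array to array, with a median SD of 0.19, and 419 intervals kept its sign.

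**Figure D5:**
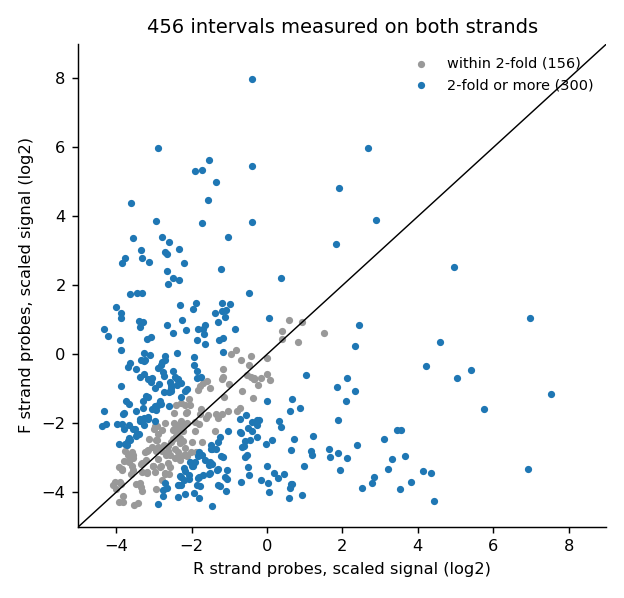
Mean scaled signal (log2, mean of the 3 arrays) of the F probes (vertical axis) and of the R probes (horizontal axis) of 456 intervals measured on both strands on all 3 arrays. The line marks equal signal, grey points are the 156 within 2-fold, and blue points lie further from it on both sides.

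The widest gaps with F above R were in chr4:56013597-56020622, where F read 6.07, 5.98 and 5.94 and R read -2.79, -2.58 and -3.28 on WT, 1SA and 2SA, in chr9:78107225-78118850, with a mean gap of 8.38, and in chr5:31856417-31916317, where F read 4.31, 4.47 and 4.39 and R read -3.59, -3.75 and -3.48. With R above F they were in chr5:26323150-26357875, where F read -3.17, -3.64 and -3.18 and R read 6.87, 7.07 and 6.80, in chr5:20457725-20477550, with a mean gap of -8.69, and in chr11:22681800-22707775, with -8.67. None of these intervals had a strand 2-fold apart between arrays.

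Few strand means were 2-fold apart between arrays. For 1SA and WT there were 4 on F and 2 on R, with 0 intervals in which both strands were 2-fold apart the same way. For 2SA and WT there were 2 on F and 5 on R, with 1 such interval, and for 2SA and 1SA there were 8 and 3, with 2 such intervals. F and R differences had the same sign in 52.0%, 55.5% and 59.4% of the 456 intervals. Across intervals, which share the arrays and are not independent replicates, Pearson's r between the F and R differences was 0.06, 0.05 and 0.09.

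Long noncoding RNAs with names of their own were read on the same arrays. Whether any of these genes overlaps a region described above was not analysed here, so the lists may share transcripts. Of a list of 40, 22 had a probe and 19 were measured on all 3 arrays. None was 2-fold apart from WT in either mutant, where 0.746% and 0.974% of all probes were higher and lower in 1SA and 0.923% and 0.732% in 2SA. Against 1SA, 2 were lower in 2SA and none was higher, beside 1.27% and 1.89% of all probes. Those were Meg3, at 0.39 (WT), 1.22 (1SA) and 0.16 (2SA) for the brightest measured of its 3 probes, and Mirg, at -2.80, -1.82 and -3.16. Both are from the same imprinted cluster, and whether other RNAs of that cluster moved likewise was not analysed here. Neat1, the scaffold of nuclear paraspeckles, read 5.35, 5.29 and 5.53. It was the brightest of the list by the probe taken for each gene, which does not rank the genes by RNA amount.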

How the data were processed

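RNA of mouse liver was labelled with Cy3 from an oligo-dT primed cDNA and hybridised to SurePrint G3 arrays, 1 array per group. The authors extracted the deposited intensity values with Agilent's Feature Extraction software, which in release 10.10.1.1 (per the file headers, with probes placed on mm9) subtracts background and corrects trends within an array. These values were not scaled between arrays. The deposited series matrix held the same intensity times 1 constant per array (3.02 on WT, 3.08 on 1SA and 2.81 on 2SA), of unstated source. Their median was 61.8, 58.4 and 62.3, they were linear and not centred, and they served as an alternative.

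Outlier spots (181, 148 and 182 in WT, 1SA and 2SA, of which 11, 12 and 10 were region probes) were left out, and no spot was saturated. The log2 values of the spots of a probe were averaged, less log2 of the array's 75th percentile, taken over 59305 non-control spots. A probe counted as measured when at least 50% of its spots were well above background. Differences are those of scaled log2 values, with a threshold of 2-fold. Number of arrays limits the precision. All 3 arrays lay on 1 slide. Another 577 probes of this kind on the X chromosome were outside the rule.

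Regions named were the 6 brightest, the 4 widest rises and falls of each comparison, up to 5 probes in each direction 2-fold apart from WT in both mutants, 3 strand pairs each way, the widest bounds, and loci with 3 or more probes 2-fold the same way. Regions on chromosome 18 were counted and not named. The region chr16:23989160-23992539, the nested regions on chromosomes 4 and 8 and the probes beside a named one were given as context. Members, rules and lists were chosen with earlier results of these data known. Gene symbols came from RefSeq accessions through a GRCm38.p6 table used for names only. The neighbouring genes of a region were not analysed here, since the table is of another build. Cell type lists, noncoding RNA genes, cell cycle and YAP target genes were taken by their brightest measured probe. Counting steps were tested on simulated data. Python 3.11.15, pandas 2.3.3, numpy 2.4.6, matplotlib 3.10.9, R 4.3.3 and limma 3.58.1 were used.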

Additional observations from a re-analysis of the deposited data

Results flagged for a closer look

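The probes of chr2:67836003-67836461 (F) stood out because 2 of them were at least 2-fold above WT in 1SA and at least 2-fold under WT in 2SA. The differences, 1SA minus WT and 2SA minus WT, were 1.16 and -1.05 for one and 1.23 and -1.13 for the other. Each group held 1 array, so the difference between the mutants was not tested. The third probe of the region had 1.15 and -0.88. With normexp background correction, none (0 of 6) of the probes of the locus that holds this region was 2-fold under WT in 2SA, and their median difference was -0.58 in place of -1.09.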

How the results depend on the processing

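The 36 named differences kept their direction under each alternative that gave a value (252 values). Of these, 216 lay within the 0.10 of repeat spots, and the other 36, all with normexp, moved further. The stricter filter left none of the 36 named differences to compare. Part of this agreement was fixed in advance. Lifting the filter on dim probes leaves a difference as it is. The array median, the other 75th percentile and the series matrix only add 1 constant to every difference of a comparison. Quantile normalisation, the array median, the 75th percentile over probes measured on all 3 arrays, the series matrix and outlier spots kept moved no count by more than 1.5 times and no median by 0.10. Counts follow in the order higher and lower in 1SA against WT, in 2SA against WT, in 2SA against 1SA and in both mutants. With normexp they were 13 and 4, 3 and 13, 3 and 22, and 0 and 3. Without the filter on dim probes they were 843 and 887, 631 and 1113, 624 and 1069, and 191 and 585, the medians were -0.19, -0.39 and -0.26, and 240 strand pairs had F and 269 had R above by 2-fold. With the stricter filter they were 7 and 0, 2 and 6, 0 and 10, and 0 and 0, with 19 and 16 strand pairs. At 3-fold they were 10 and 14, 7 and 23, 8 and 29, and 0 and 9. With the flag for signal above background in place of well above it, 8901, 9397 and 9496 region probes were measured on WT, 1SA and 2SA, and the share of strand pairs on a single strand was 17.0%, 15.5% and 14.4%. Counting only probes above the median of measured probes gave 1030, 1053 and 1001 probes and 28.7%, 29.8% and 29.1%. Requiring 50% of the probes of a strand, chosen after seeing the data, gave 38.9% on 2SA, and taking the brightest probe of each strand, also chosen then, moved no count by more than 1.5 times. For the changes beyond what each filter or threshold does by its construction, the cause was not tested. No paired analysis was possible because there was 1 array per group, and for the same reason no array could be left out and no slide block fitted. Most region probes lay near background, so a count of probes not measured does not show that the RNA was absent.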
